A study of Mus musculus with 6 samples.

Results

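Cebpd, Cebpb and Cebpa encode C/EBP-delta, C/EBP-beta and C/EBP-alpha, 3 transcription factors of the CCAAT/enhancer-binding family. They were followed in mIMCD3 cells, a mouse line of the inner medullary collecting duct, after 1 h with aldosterone or with vehicle. Every probe set (the group of oligonucleotides that reports a transcript) annotated with exactly 1 of these 3 symbols was taken, which gave 3 of the 12422 probe sets on the array, 1 per gene: 160894_at for Cebpd, 92925_at for Cebpb and 98447_at for Cebpa. Members were taken by symbol, with no limit on their values, but the family was chosen with earlier results of these data known. The experiment was carried out in 3 replications. Each replication gave 1 aldosterone array and 1 vehicle array, so each group held 3 arrays. Neither the hormone dose nor the solvent is given in the sources used here, and nothing says whether the replications were separate cultures, so p-values measure only the spread between these arrays.

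C/EBP proteins bind DNA through a basic region and pair through a leucine zipper, with one another or with other zipper proteins. In cultured preadipocytes, glucocorticoids induce Cebpd and agents that raise cyclic AMP induce Cebpb at the start of differentiation, and Cebpa follows later and accompanies growth arrest. In epithelia and liver, Cebpb and Cebpd are best known as factors of the acute phase and inflammatory response. Aldosterone acts through the mineralocorticoid receptor, and at high doses also through the glucocorticoid receptor.

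Intensities are given after each array was scaled to a shared trimmed mean, and log2 values are log2(intensity + 53.0). The aldosterone array of replication 3 was deposited on a lower scale and was multiplied by 24.2, against 0.838 to 0.840 on the other 5 arrays. Across the 7453 probe sets bright enough to be tested, Pearson's r between the log2 values of any pair of arrays was 0.936 to 0.976. All 3 C/EBP probe sets passed the brightness filter. Of the 14 collecting duct and epithelial markers on the array, 9 were bright enough to be tested, against 5640 of 8251 over all named genes. The brightest of these markers were Krt8, Krt19 and Cdh16. Krt8 had 17461 ± 1623 with aldosterone and 19391 ± 3832 with vehicle, and Cdh16, the kidney-specific cadherin, 14352 ± 522 and 14892 ± 1665 (SD, n = 3 each). The collecting duct genes Aqp2, Aqp4, Avpr2, Hsd11b2 and Gata3 were below the filter. Of the markers of other cell types, those bright enough were 2 of 3 for intercalated cells, 3 of 6 for proximal tubule, 3 of 8 for fibroblasts, 1 of 5 for endothelium, 0 of 3 for hepatocytes, 1 of 3 for adipocytes (Lep) and 3 of 7 for leukocytes (Cd14, Csf1r and Cd68). The defining leukocyte marker Ptprc was below the filter, but Cd14 had 5199 ± 855 with aldosterone and 5907 ± 1141 with vehicle (SD, n = 3 each). Summed over the leukocyte list, intensities were 6281 to 7991 on the aldosterone arrays and 6696 to 9573 on the vehicle arrays. Their part in the results below was not tested.

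The 250 bases before the transcription start are shown for Cebpb and Cebpa, the members whose upstream windows were matched in RefSeq (build GRCm38.p6, 2 of 3 members). No window was available for Cebpd. The Cebpb window lies on the plus strand at chr2:167688665-167688914 and the Cebpa window on the plus strand at chr7:35119043-35119292. Capitals mark TGACG, part of the cyclic AMP response element TGACGTCA (CGTCA when it lies on the other strand), and the TATA box letters TATAAA.
Cebpb: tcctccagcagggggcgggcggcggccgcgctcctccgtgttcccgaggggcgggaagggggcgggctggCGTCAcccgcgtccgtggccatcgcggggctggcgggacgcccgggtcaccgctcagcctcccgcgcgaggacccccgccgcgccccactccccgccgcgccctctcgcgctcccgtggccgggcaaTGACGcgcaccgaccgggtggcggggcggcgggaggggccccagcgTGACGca
Cebpa: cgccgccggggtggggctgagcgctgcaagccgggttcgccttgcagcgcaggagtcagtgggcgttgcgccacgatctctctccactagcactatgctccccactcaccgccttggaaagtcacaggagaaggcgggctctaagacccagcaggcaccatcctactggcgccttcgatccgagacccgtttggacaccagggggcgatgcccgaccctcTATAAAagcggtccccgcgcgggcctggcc

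Both strands of each window were searched for AGAACA and ACANNNTGT (parts of the glucocorticoid response element). They were also searched for TGACGTCA (cyclic AMP response element), its part TGACG, TTCNNNGAA (STAT), TTGCNNAA (C/EBP), GGGCGG (Sp1) and TATAAA. The Cebpb window held TGACG 3 times, starting at -180, -53 and -7 from the transcription start, and GGGCGG 5 times, not capitalised. TGACG is found in 17.8% and GGGCGG in 32.7% of the 32851 windows of that length. The Cebpa window held TATAAA at -30, which 12.4% of windows hold, and did not hold TGACG. The full TGACGTCA, which 1.55% of windows hold, was found in neither window. Of the 2 glucocorticoid element motifs, AGAACA is present in 16.1% and ACANNNTGT in 5.84% of all windows, and neither was found in the window of Cebpb or of Cebpa. The window of Cebpb was 81.6% G and C and that of Cebpa 66.4%. A match describes the letters and is no evidence of binding.

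Cebpd was higher with aldosterone in every replication, Cebpb was higher by a smaller amount in every replication, and Cebpa moved in different directions. None of these differences passed the test over all probe sets. Cebpd had intensities of 6352, 6424 and 5829 on the aldosterone arrays of replications 1, 2 and 3, against 4456, 3690 and 2293 on the vehicle arrays. The aldosterone values lay close together and all stood above the highest vehicle value, so the groups did not overlap. The mean was 6201 ± 325 with aldosterone and 3480 ± 1097 with vehicle (SD, n = 3 each).

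**Figure D1:**
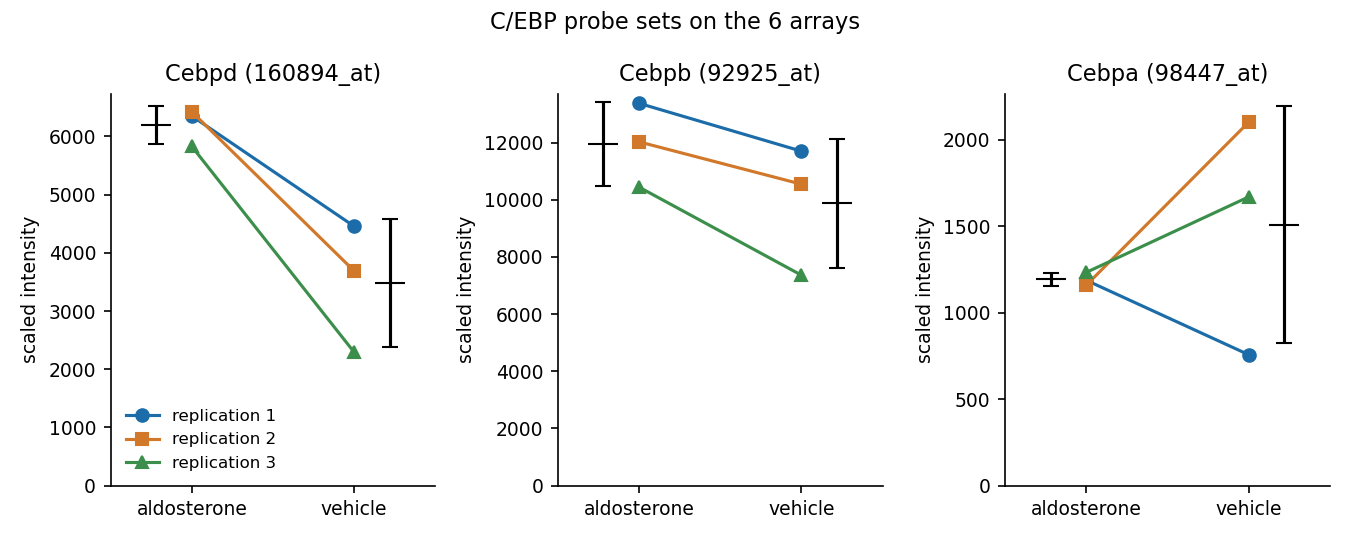
Scaled intensity (linear axis from 0) of Cebpd, Cebpb and Cebpa on the 3 aldosterone and 3 vehicle arrays, with a line joining the arrays of a replication and black bars for mean ± SD. Cebpd lay between 5829 and 6424 with aldosterone and between 2293 and 4456 with vehicle, whereas the Cebpb groups overlapped and the Cebpa lines crossed.

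Within the replications Cebpd was 1.42-fold, 1.73-fold and 2.51-fold higher on the log2(intensity + 53.0) scale, and 1.83-fold on average (95% interval 1.29 to 2.61). The fold was highest in replication 3, where the vehicle value was lowest. A fold shares its vehicle value with that level, so the 2 are not independent. The mean log2 difference was 0.87 (standard error 0.226). It had an unadjusted p of 0.00350, which ranked 6 among the 7453 tested probe sets, and a Benjamini-Hochberg adjusted p of 0.9995 in limma's fit on group alone. That fit called 0 of 7453 probe sets (percent called 0) at an adjusted p under 0.05, while 46 were higher at an unadjusted p under 0.05 (0.617%). With the replication number as a block, which compares the arrays of a replication with each other, the standard error of Cebpd was 0.151, its unadjusted p 2.72e-04 and its adjusted p 0.225. The blocked fit also called 0 probe sets, with 154 higher at an unadjusted p under 0.05 (2.07%). Leaving out replication 2 in the blocked fit was the one setting in which Cebpd was called (0.92, adjusted p = 0.00592). Without the aldosterone array of replication 3, the one deposited on another scale, the log2 difference was 0.92 for Cebpd, 0.39 for Cebpb and -0.24 for Cebpa. A larger mean increase than that of Cebpd was seen for 26 tested probe sets.

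Cebpb had intensities of 13376, 12028 and 10444 on the aldosterone arrays of replications 1, 2 and 3, against 11702, 10547 and 7365 on the vehicle arrays. The aldosterone array was the higher of each replication, but the aldosterone value of replication 3 lay below the vehicle values of replications 1 and 2, so the groups overlapped. Means were 11949 ± 1468 with aldosterone and 9871 ± 2246 with vehicle (SD, n = 3 each). The within-replication folds were 1.14, 1.14 and 1.42, with a mean log2 difference of 0.29, a standard error of 0.185 and a 95% interval of -0.12 to 0.71. Limma's adjusted p was 0.9995, and 0.998 with the replicate block (unadjusted p = 0.0115). As for Cebpd, the fold was highest in replication 3. Without the vehicle array of replication 3 the Cebpb difference was 0.10 and that of Cebpd 0.61.

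Cebpa had intensities of 1187, 1159 and 1233 on the aldosterone arrays of replications 1, 2 and 3, against 757, 2101 and 1669 on the vehicle arrays. The aldosterone values were nearly the same, while the vehicle values lay both below and above them. Means were 1193 ± 37.3 with aldosterone and 1509 ± 686 with vehicle (SD, n = 3 each). The log2 differences were 0.61, -0.83 and -0.42 within the replications and -0.21 on average, with a standard error of 0.329, a 95% interval of -0.95 to 0.53 and an adjusted p of 0.9995 by limma. The direction was not resolved: without the vehicle array of replication 2 the difference was 0.08, and without that of replication 1 it was -0.63 (limma's unadjusted p = 0.0182, adjusted p = 0.9997).

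Against all tested probe sets, 2 of the 3 C/EBP probe sets were higher with aldosterone in 3 of 3 replications, which 10.5% were. Of the 3, 1 (Cebpd) had every aldosterone array above every vehicle array, which 1.91% had. The members were chosen with earlier results of these data known, so these shares are descriptions and no independent evidence. The median log2 difference over all tested probe sets was -2.89e-04, with quartiles of -0.10 and 0.10. Sgk1 and Per1, well-known corticosteroid-induced genes, had larger log2 differences than Cebpd, 1.63 ± 0.223 for Sgk1 and 1.26 ± 0.185 for Per1 (± standard error).

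**Figure D2:**
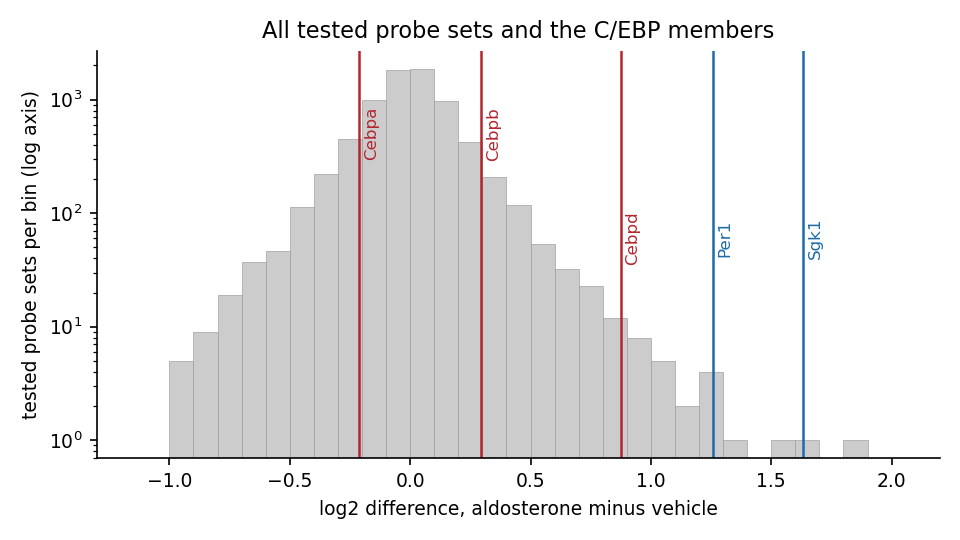
Number of tested probe sets (log axis) by their mean log2 difference, aldosterone minus vehicle, in bins of 0.1, with red lines for the C/EBP members and blue lines for Sgk1 and Per1. Cebpd at 0.87 lay in the sparse upper tail below Per1 at 1.26 and Sgk1 at 1.63, and Cebpa at -0.21 and Cebpb at 0.29 lay in the body of the distribution.

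Whether Cebpd differed more than its relatives was tested on the difference itself. The log2 value of Cebpd minus that of Cebpb was -1.07, -0.90 and -0.84 on the aldosterone arrays of replications 1, 2 and 3, and -1.38, -1.50 and -1.66 on the vehicle arrays. Every aldosterone array lay above every vehicle array, and Cebpd was higher relative to Cebpb with aldosterone in all 3 replications. The size of this difference at a given array reflects the probes and is not a ratio of transcripts. Its mean was -0.93 ± 0.120 with aldosterone and -1.51 ± 0.140 with vehicle (SD, n = 3 each), a difference of 0.58 (exact permutation test over arrays, two-sided, p = 0.1, the smallest that 3 against 3 arrays allow, and 0.2 after adjustment over the 2 such tests). Relative to Cebpa, the difference for Cebpd was 1.09 (exact permutation p = 0.4, adjusted p = 0.4), with -0.11, 1.62 and 1.75 in replications 1, 2 and 3. It was 1.70 without the vehicle array of replication 1 (exact permutation p = 0.1) and 0.69 without that of replication 3 (exact permutation p = 0.4).

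**Figure D3:**
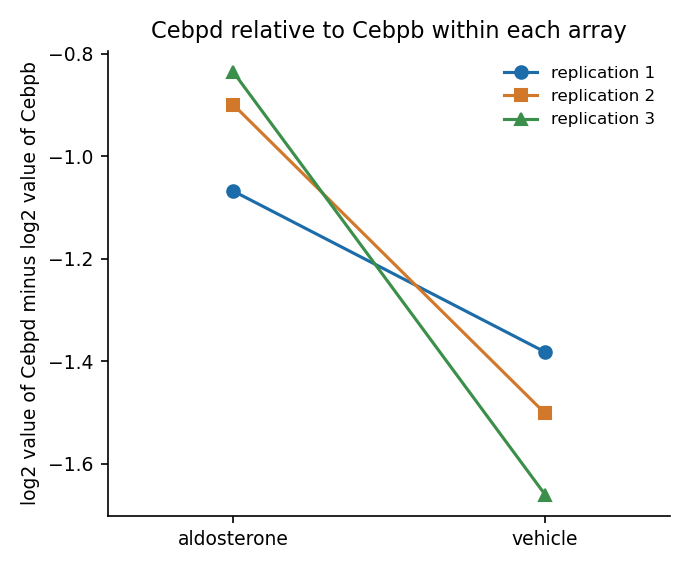
Log2 value of Cebpd minus log2 value of Cebpb on each array, aldosterone left and vehicle right, with a line joining the arrays of a replication. The 3 aldosterone arrays lie between -1.07 and -0.84 and the 3 vehicle arrays between -1.66 and -1.38, without overlap.

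All 3 C/EBP transcripts varied less among the aldosterone arrays than among the vehicle arrays. The SD of the 3 log2 values was 0.0761 with aldosterone and 0.486 with vehicle for Cebpd, 0.178 and 0.349 for Cebpb, and 0.0431 and 0.739 for Cebpa. A smaller spread with aldosterone was common, being found for 54.8% of tested probe sets, with a median ratio of vehicle to aldosterone SD of 1.08. The ratio was 6.38 for Cebpd, 1.95 for Cebpb and 17.2 for Cebpa, and a more extreme ratio in this direction was found for 2.62%, 20.9% and 0.255% of tested probe sets in that order. With 3 arrays a group an SD is poorly determined, and this ratio was not tested.

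Between replications, Cebpd and Cebpb were lowest in replication 3 with aldosterone and with vehicle, which held for 18.5% of tested probe sets. On the mean log2 value of both arrays Cebpa was lowest in replication 1. This held with vehicle (intensity 757), while with aldosterone replication 2 was lowest (1159). The distance from the lowest to the highest replication was 1.42-fold for Cebpb (limma's F test, adjusted p = 0.0532), 1.45-fold for Cebpd (adjusted p = 0.169) and 1.61-fold for Cebpa (adjusted p = 0.306). The test called 583 of 7453 probe sets (7.82%) and none of the 3 members, although Cebpb was called without a filter on dim probe sets (adjusted p = 0.0474), with a stricter filter (0.0415) and after quantile normalization (0.0346). Without limma's intensity trend the test called 2 probe sets. Cebpb was also called without the aldosterone array of replication 2 or 3 or the vehicle array of replication 2, Cebpd without the aldosterone array of replication 3 (adjusted p = 0.0290) and Cebpa without that of replication 2 (adjusted p = 0.0381). Across the 6 arrays the log2 values of Cebpd and Cebpb correlated at Pearson's r of 0.885, those of Cebpd and Cebpa at -0.494 and those of Cebpb and Cebpa at -0.505. These are descriptions over 6 arrays that share 3 replications.

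Immediate early genes, the fast transcriptional response to serum and stress, also differed between replications. Of the 20 tested, 14 were called by the F test, against 7.82% of all tested probe sets. All 14 were highest in replication 1. Without limma's intensity trend the F test called 2 probe sets in all. The list was written with this pattern of these arrays known, so the count of 14 is a description and no independent evidence. The brightest were Plk2, a stress-induced kinase, with a distance between replications of 2.25 (log2), the survival factor Ier3 with 1.15 and the repressor Klf10 with 0.36. The summed intensity of the list was 141581, 80581 and 61784 on the aldosterone arrays of replications 1, 2 and 3, and 157234, 68500 and 59113 on the vehicle arrays. The median distance between replications was 1.36 (log2) over these genes, against 0.53 for Cebpd, 0.51 for Cebpb and 0.37 for the median tested probe set. The part of these differences in the C/EBP values was not tested. In RNA from whole cultures, fewer cells with a transcript and less of it per cell cannot be told apart.

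**Figure D4:**
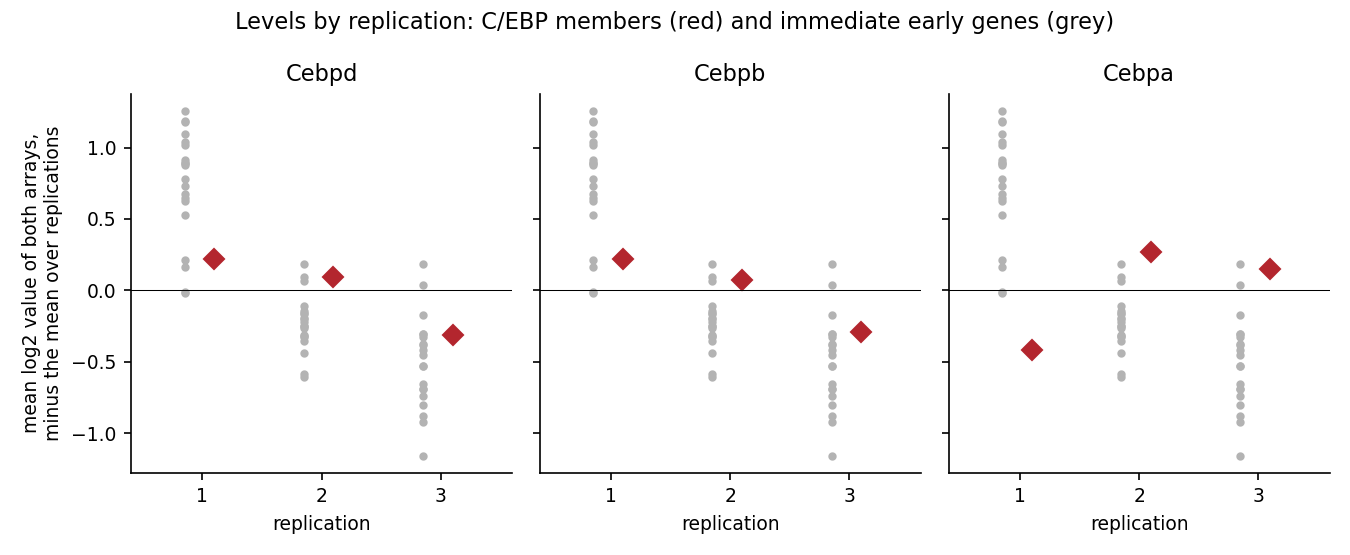
Mean log2 value of the aldosterone and vehicle arrays of each replication, minus the mean over the 3 replications, for each C/EBP member (red diamonds) and the 20 tested immediate early genes (grey points). Cebpd and Cebpb lay lowest in replication 3 and Cebpa lowest in replication 1, over narrower ranges than most of the immediate early genes.

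Among the relatives and zipper partners of the C/EBP proteins, 16 of 19 listed genes were on the array and 14 were tested. By limma 0 of 14 passed, and 0 had an unadjusted p under 0.05 (0.966% of all probe sets in either direction). Their median log2 difference was 0.01, with 8 higher and 6 lower by sign. Ddit3, which encodes the stress-induced C/EBP relative CHOP, had 1496 ± 394 with aldosterone and 1007 ± 470 with vehicle (SD, n = 3 each). It was higher in 3 of 3 replications, as were 10.5% of tested probe sets, by log2 differences of 0.54, 1.01 and 0.34. Limma's unadjusted p was 0.119, and 0.0125 with the replicate block (adjusted p = 0.998). With the block it was the 1 of 14 genes at an unadjusted p under 0.05, where 2.07% of all probe sets were higher. Cebpg, a C/EBP protein without a strong activation domain, had 865 ± 387 with aldosterone and 689 ± 166 with vehicle, with differences of 0.69, 0.16 and -0.09.

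Atf4, a stress-response zipper factor that can pair with C/EBP proteins, was the steadiest of the partners, at 27975 ± 2920 with aldosterone and 28002 ± 3624 with vehicle (log2 difference 0.001, 95% interval -0.30 to 0.30). Atf3, an immediate early repressor, had 0.19 in its brightest probe set, higher in 3 of 3 replications as were 10.5% of tested probe sets. It had -0.001 in its second probe set. Its remaining probe set, below the filter and not tested, had -0.07. Nfil3, a repressor of the same superfamily, had 0.14 in its brightest and 0.43 in its other probe set. The AP-1 subunits dimerise with one another through their zippers. They had -0.08 (Fos), 0.28 (Fosb), -0.07 (Fosl1), -0.26 (Fosl2), -0.20 (Jun), 0.03 (Junb) and 0.17 (Jund), each in its brightest probe set. The other Fos probe set, below the filter and not tested, had -0.76. It was lower in 3 of 3 replications, as were 11.5% of tested probe sets. The other Junb probe set had -0.01. Of the 7 AP-1 subunits, 4 differed between replications by limma's F test, which called 7.82% of tested probe sets. These were Fos, Jun, Junb and Jund (adjusted p of 0.00106 to 0.0178), highest in replication 1. Tef at -0.33 and Atf5 at -0.28 were lower by sign. Dbp and Batf were below the filter and not tested; Dbp, a clock-controlled zipper factor, had 337 ± 168 with aldosterone and 198 ± 185 with vehicle, and Batf 136 ± 13.4 and 185 ± 31.1 (SD, n = 3 each).

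**Figure D5:**
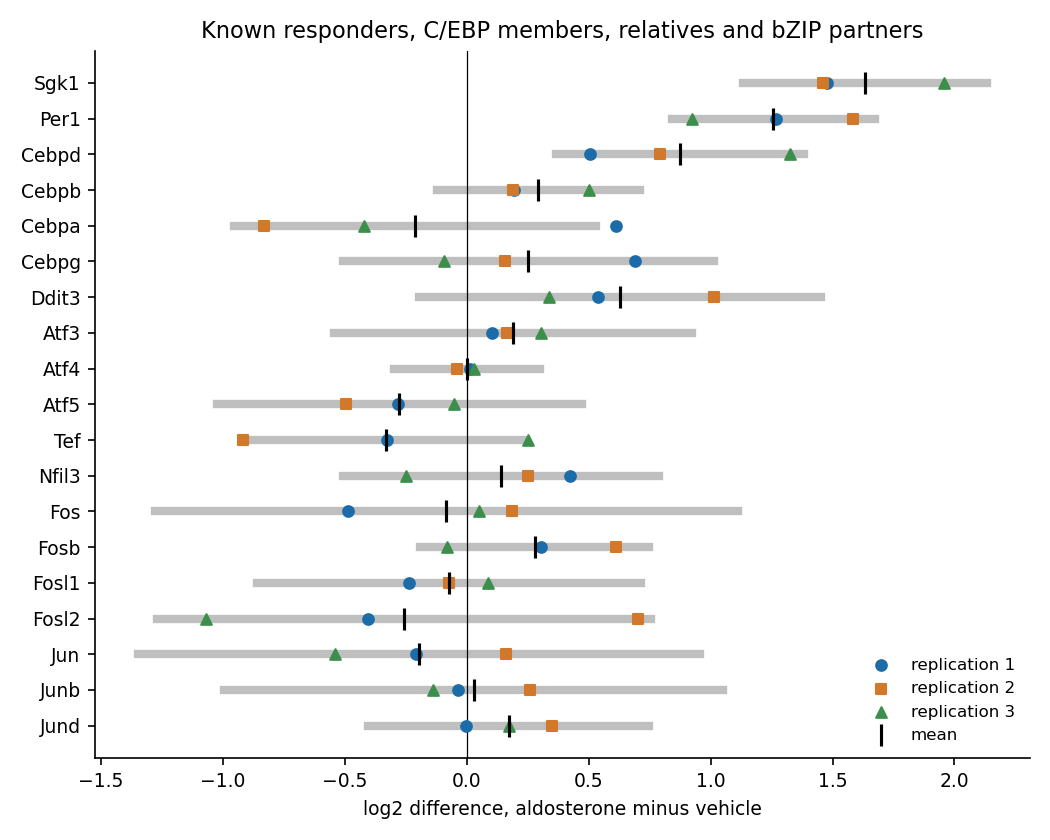
Log2 difference, aldosterone minus vehicle, in each replication (coloured points), with the mean (black tick) and limma's 95% interval (grey bar), for Sgk1, Per1, the 3 C/EBP members and the 14 tested relatives and zipper partners. The intervals of Sgk1, Per1 and Cebpd lie above 0 before adjustment for multiple testing, and all others include 0.

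Genes upstream of Cebpd and Cebpb were tested for 14 of the 24 listed, with 0 passing, 0 at an unadjusted p under 0.05 on group alone and 1 with the replicate block (2.07% of all probe sets were higher), at a median of -0.03. That 1 was Il6ra, the interleukin-6 receptor, with intensities of 725, 916 and 817 on the aldosterone arrays of replications 1, 2 and 3, against 1018, 121 and 224 on the vehicle arrays. The groups overlapped, and its log2 difference of 1.22 had a standard error of 0.580 (limma's unadjusted p = 0.0629, and 0.0362 with the replicate block, adjusted p = 0.998). Il6st, the shared receptor subunit of the interleukin-6 family, had a log2 difference of -0.02, Sp1 had -0.05 and the protein kinase A subunit Prkaca -0.03. Stat3, which carries cytokine signals to the Cebpd gene, had -0.20 with a standard error of 0.195. Of the 14 tested genes, 5 were higher and 9 lower by sign. In 3 of 3 replications 0 were higher and 1 was lower, as were 11.5% of tested probe sets. This was Il1r1, the interleukin-1 receptor, at -0.36 (limma's unadjusted p = 0.135). Of genes that regulate C/EBP proteins, 5 of the 12 listed were tested and 0 passed. On group alone 0 had an unadjusted p under 0.05, against 0.966% of all probe sets, so counts of 0 in these short lists say little. The coactivator Crebbp had -0.03, the pseudokinase Trib3 -0.06 and the ubiquitin ligase Siah2 0.11.

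Genes known as C/EBP targets in other tissues showed no difference past the test, which called 0 of 7453 probe sets. On group alone 0.966% of all probe sets had an unadjusted p under 0.05, so counts of 0 in short lists say little. Of the inflammatory and acute phase targets 10 of 23 were tested, at a median log2 difference of -0.03, with 0 at an unadjusted p under 0.05 on group alone and 2 with the replicate block (Ccl2 and Cxcl1, both higher, as were 2.07% of all probe sets). The iron-binding protein Lcn2 had -0.02, the chemokine Ccl2 0.29 and the chemokine Cxcl1 0.23. These 3 genes each differed between replications (limma's F test, adjusted p of 1.21e-04 to 5.25e-04), as did 7.82% of tested probe sets. The 3 were highest in replication 1, as were the called immediate early genes. Of the adipogenic and metabolic targets 8 of 21 were tested, with a median of 0.13 and 0 at an unadjusted p under 0.05. The metallothioneins had 0.14 (Mt1) and 0.19 (Mt2), and the lipid synthesis regulator Srebf1 -0.003. Pparg and Fabp4, adipocyte targets of Cebpa, were below the filter.

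Of the growth arrest targets and partners 11 of 12 were tested, with a median of 0.05. The kinases Cdk4 and Cdk2, which C/EBP-alpha can bind, had 0.05 and 0.06, and the superoxide dismutase Sod1 had 0.04. With the replicate block 1 was higher at an unadjusted p under 0.05 (Gadd45g, 0.41; 2.07% of all probe sets), and on group alone 0 did. Of the myeloid targets 6 of 11 were tested, with a median of -0.05. On group alone 0 had an unadjusted p under 0.05, against 0.966% of all probe sets. Cd14, the lipopolysaccharide co-receptor, had -0.18 and was lower in 3 of 3 replications, as were 11.5% of tested probe sets, and the colony-stimulating factor receptors had -0.05 (Csf3r) and -2.14e-04 (Csf1r).

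Corticosteroid-induced genes other than the C/EBP members had a median log2 difference of 0.22 over 16 tested of 21 listed, with 12 higher and 4 lower by sign. By limma 0 passed over all probe sets, 4 were higher at an unadjusted p under 0.05 (0.617% of all probe sets) and 7 with the replicate block (2.07%). The list was written with results of these arrays known, so its direction is no independent evidence. In 3 of 3 replications 8 of the 16 were higher and 1 was lower, against 10.5% and 11.5% of tested probe sets. The 3 brightest tested members were Nfkbia, the NF-kB inhibitor, at 0.24, Errfi1, the EGF receptor feedback inhibitor, at 0.44, and Ddit4, an inhibitor of mTOR signalling, at 0.36. Each of these 3 was higher in 3 of 3 replications.

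The genes whose log2 values followed each member most closely were ranked by Pearson's r over the 6 arrays among 6741 tested probe sets with 1 symbol. For Cebpd they were Rab21 (r = 0.985), Helb (0.961), Polb (0.956), Cyp4a12b (0.953) and Sphk1 (0.949), with log2 differences of 0.21, 0.50, 0.44, 0.64 and 0.99. For Cebpb they were Fbl (0.987), Nfkbiz (0.984), Bcl3 (0.978), Msh6 (0.972) and the dimmer Nfil3 probe set (0.972). For Cebpa they were Pole3 (0.988), Rad23b (0.977), Nme1 (0.966), Taok3 (0.962) and Tmem70 (0.959), with log2 differences of -0.22 to -0.02. With 6 arrays and so many probe sets, high values of r arise easily, and they are given as descriptions.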

How the data were processed

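The deposited table held linear intensities of the probe sets of 6 single-colour arrays; the authors' software and scaling are not stated in the sources used here. The trimmed means (2% from each end) of 5 deposited arrays were 2488 to 2493 and that of the aldosterone array of replication 3 was 86.5, so each array was scaled to their mean of 2090. On that array 1 deposited step of intensity became 2.42. Values were taken as log2(intensity + 53.0), the 10th percentile, and probe sets with a mean below the 40th percentile (8.87) were left out, leaving 7453. Symbols came from the platform annotation, compared through Entrez identifiers with RefSeq (GRCm38.p6); 0 changed. Of all probe sets, 10833 had 1 symbol, 396 several and 1193 none.

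The treatments were set against each other in limma 3.58.1 (R 4.3.3; lmFit, then eBayes with its intensity trend; two-sided tests; group as the one term), and replications by an F test with group in the model, both adjusted by Benjamini-Hochberg over 7453 probe sets at a threshold of 0.05. Both were tested on simulated data. The replication numbers were taken to pair the arrays, since per the labels each is a repeat of the experiment. Deviations from the group means correlated at 0.377, 0.387 and 0.471 within replications. Between aldosterone and vehicle arrays of different replications they correlated at -0.279 to -0.0853. Deviations from a mean cancel within a group, so these values are not independent. Each listed gene was counted by its brightest probe set. The rule for named genes took every member, the relatives and partners on the array, Sgk1 and Per1. It also took the 3 brightest genes of each other gene list and the 5 genes most like each member. Cell type markers were fixed apart from it. Il6ra, Il1r1, Stat3, Gadd45g, Pparg and Fabp4 were named after their values were seen. The members and lists were chosen with earlier results of these data known. The number of arrays limits the precision. Sequences were read from RefSeq's promoter windows.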

Additional observations from a re-analysis of the deposited data

How the results depend on the processing

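Cebpd was higher with aldosterone under all 22 alternatives run, at log2 differences of 0.61 to 1.08, and Cebpb under all 22, at 0.10 to 0.43. Leaving out arrays or replications gave the same ranges, with the lowest values without vehicle replicate 3 and the highest without vehicle replicate 1. Cebpd passed the test over all probe sets in 1 alternative, the replicate block without replicate 2 (0.92, adjusted p = 0.00592). Cebpa ranged from -0.63 without vehicle replicate 1 to 0.10 without replicate 2, with or without the replicate block, and was 0.08 without vehicle replicate 2. The difference of Cebpd relative to Cebpb was 0.46 to 0.71 and relative to Cebpa 0.69 to 1.70. For Cebpb, the exact sign-flip test that keeps the pairing gave p = 0.25, the smallest that 3 pairs allow. The count of probe sets called, 0, was 0 to 1 without single arrays or replications, and with the replicate block it was 0, except 20 without replicate 2 and 9 without replicate 3. Over all 3 replications the replicate block changed no call. Probe sets at an unadjusted p under 0.05 numbered 72 on group alone and 71 to 138 without arrays or replications. They numbered 250 with the replicate block, 279 with the block and no intensity trend, 303, 377 and 348 with the block and without replicate 1, 2 or 3, 262 with no filter, 38 with the filter at the 60th percentile and 126 in the plain two-sample test. The F test between replications called 583, but 2 without the intensity trend and 44 to 1292 without single arrays. The distance between replications (log2) of Cebpb was called at 0.51 with no filter or the filter at the 60th percentile and at 0.53 after quantile normalization. Without single arrays it was 0.35 to 0.67 for Cebpb, 0.19 to 0.87 for Cebpd and 0.12 to 1.31 for Cebpa. Cebpd was called without aldosterone replicate 3, Cebpa without aldosterone replicate 2, and Cebpb without aldosterone replicate 2 or 3 or vehicle replicate 2. The cause was not tested for these changes. Other probe sets of the members could not be tried, since each gene has 1, and the filter at the 60th percentile left Cebpa out. With 3 arrays a group, differences the size of those of Cebpb and Cebpa could not be resolved. That of Cebpd did not pass on group alone or with the replicate block over all 3 replications.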
